A study of Homo sapiens with 12 samples.

Results

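The 57 genes described here lie on the long arm of chromosome 22, from ATP6V1E1 near the centromere to TYMP near the end of the arm, and were followed in 2 human cancer cell lines in which GSTO1, the gene of the glutathione transferase omega 1, had been knocked out. They are 57 of the 27788 gene symbols counted and of the 613 counted symbols placed on chromosome 22. They were named because their RNA was lower in knockout (KO) than in wild-type (WT) U-87 MG cells and not generally so in HCT116 cells. The KO against WT values of both lines therefore chose them, and for those comparisons the genes' values and counts are given as a description with no test.

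U-87 MG GSTO1 KO cells were set against U-87 MG cells labelled wild type, and HCT116 GSTO1 KO cells against HCT116 cells labelled wild type, with 3 libraries in each of the 4 groups. U-87 MG is an aneuploid glioblastoma line and HCT116 a near-diploid colorectal carcinoma line. Per the labels' protocols, lines stably expressing Cas9 after lentiviral transduction and blasticidin selection received a tracrRNA with a crRNA against exon 2 of GSTO1 or a non-targeting crRNA, and colonies grown from individual cells were screened for loss of GSTO1 and sequenced. The labels leave unstated whether the WT libraries came from untreated cells, Cas9 cells or cells given the non-targeting crRNA, how many colonies the KO libraries represent, and whether libraries were separate cultures. All differences between libraries labelled KO and WT are thus also differences between the particular cells grown, and the errors and p-values describe how far these libraries spread, which may be technical.

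The long arm of chromosome 22 carries most of its genes, since the short arm of this acrocentric chromosome holds mainly ribosomal RNA repeats. Most human genes have little dosage compensation, so that their RNA tends to follow the number of gene copies in a cell. Deletion of 22q11 causes DiGeorge syndrome, and the arm further holds the tumour suppressor genes NF2, SMARCB1 and CHEK2. NF2 on this arm is lost in many meningiomas and schwannomas. If every copy gives the same RNA, a log2 fold change of -1 is 50% of the WT level. DNA was not measured here, so fewer copies of a gene, in all or some of the cells, and less RNA from each copy cannot be told apart.

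Libraries held 17814142 to 28097179 counts assigned to genes. GSTO1 itself, on chromosome 10, had 25.02, 23.8 and 25.2 CPM in U-87 MG KO libraries, against 143, 142 and 117 CPM in WT libraries, and 17.1, 14.6 and 15.7 CPM in HCT116 KO libraries, against 63.9, 64.7 and 61.4 CPM in WT libraries, where CPM are counts scaled to library size with TMM factors, so the KO libraries of both lines match their label. The 3 U-87 MG WT libraries were not equally alike: library 3 differed more from the other two, the chi-square over genes divided by its degrees of freedom being 8.21 and 9.31, against 2.38 between libraries 1 and 2. In HCT116 the same measure was 5.56 and 5.40 for KO library 3 against KO libraries 1 and 2, and 1.80 between those. For HCT116 WT library 3 it was 3.63 and 3.46, against 1.48 between WT libraries 1 and 2. Epithelial markers summed to 1849 to 2046 FPKM in HCT116 KO and 2045 to 2166 FPKM in WT libraries, with only VIL1 of 9 under 0.5 FPKM. In U-87 MG, 7 of 10 glial and mesenchymal markers were present, summing to 6386 to 6464 FPKM in KO and 6785 to 7607 FPKM in WT libraries, while GFAP, SOX2 and OLIG2 were under 0.5 FPKM in both groups. Of 5 leukocyte markers, PTPRC, CD3E and CD14 were under 0.5 FPKM in all groups, and in U-87 MG the list summed to 299 to 311 FPKM in KO and 179 to 220 FPKM in WT libraries, nearly all of it CD68. The 3 endothelial markers were all under 0.5 FPKM in every group.

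In U-87 MG, nearly the whole list was lower in KO cells, by an amount that for most genes lay close to 50% of the WT level. Of the 57 genes, 54 had enough counts to be tested, and 49 of them were lower and 0 higher by edgeR's quasi-likelihood test with limits of 0.05 on the adjusted p, 1.5 on the fold and 0.5 FPKM on the mean level; over all 13741 genes tested 8.15% were lower and 8.06% higher by the same rule. Because a loss of 1.5-fold lies on that threshold, the adjusted p alone was counted too, and 52 of the 54 were lower and 0 higher by it, against 30.2% and 29% of all genes. In 53 of the 54 every KO library lay below every WT library and in 0 above, which held for 32.2% and 31.8% of all genes tested. These genes had been chosen on this comparison, so nothing further is read from the counts. DESeq2 gave 50 lower and 0 higher, and 0 of the 54 were higher at an unadjusted p under 0.05.

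The median log2 fold change of the 54 genes was -1.04, against 0.01 for all genes tested. Expressed as the KO mean over the WT mean, 35 genes lay between 40% and 60% of WT, 12 under 40%, 6 between 60% and 80% and 1 above. The genes were alike in the 3 KO libraries, whose median log2 ratios to the WT mean were -1.04, -1.01 and -0.97, while those of the WT libraries were within 0.01 of 0. The library-by-library map of all 57 genes shows the shift in each of the 3 KO libraries.

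**Figure D1:**
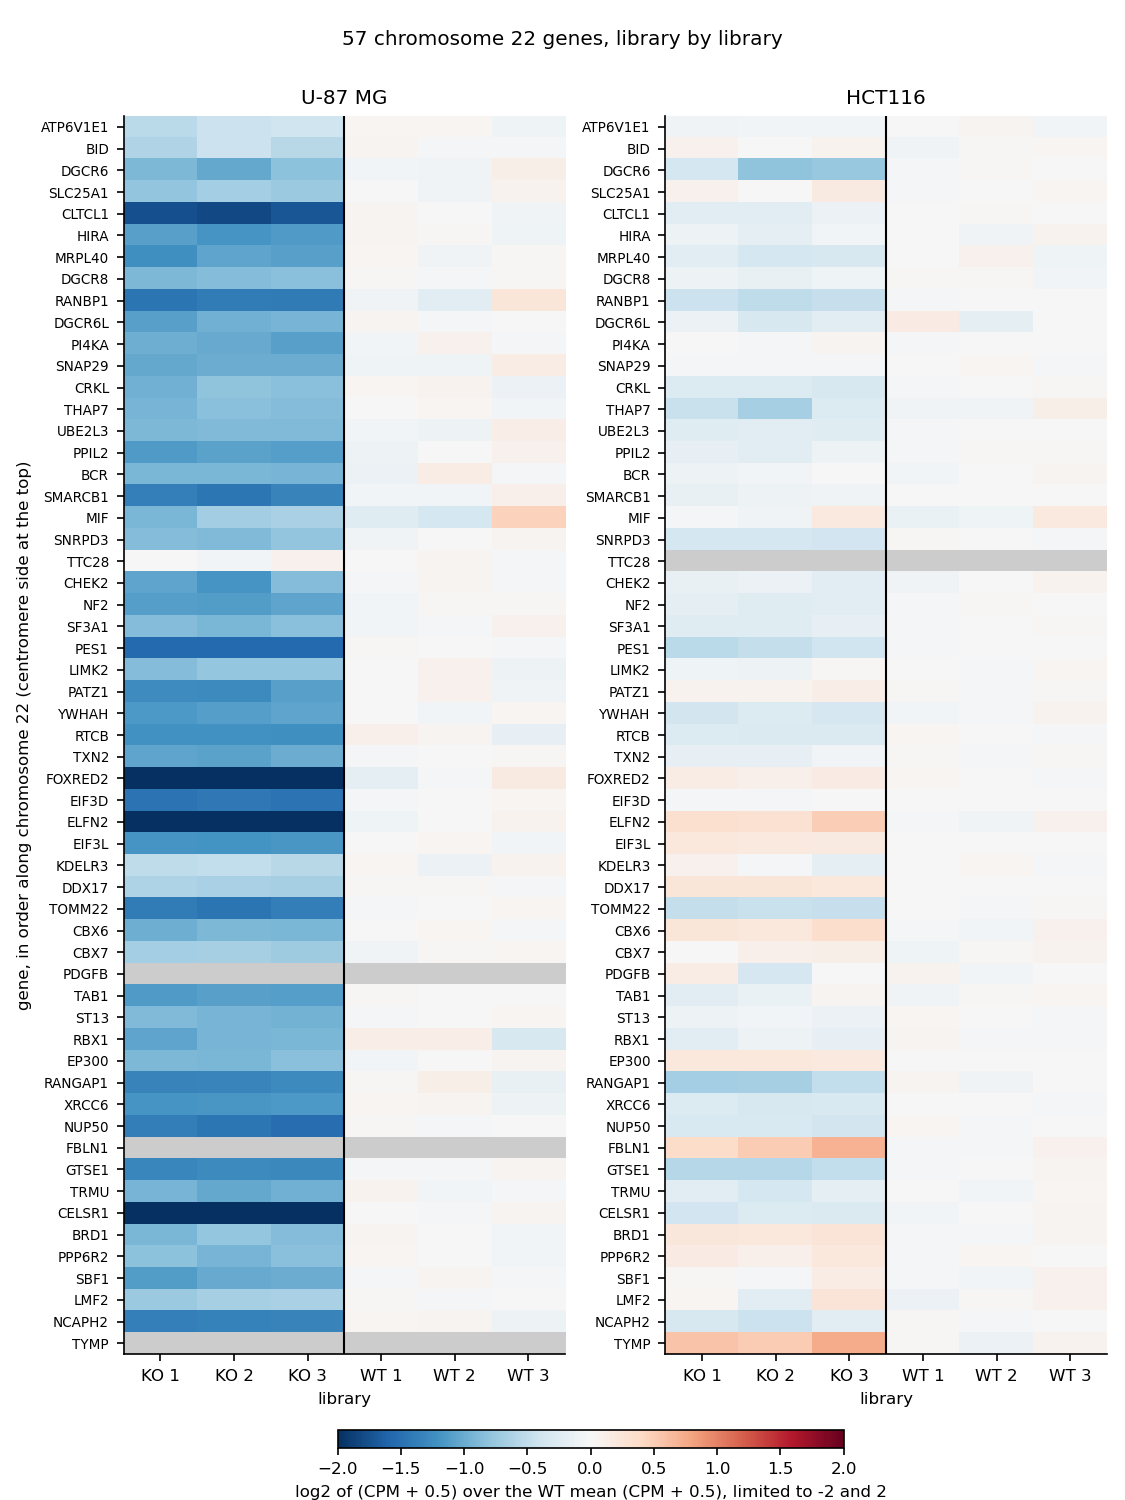
Each row is a gene of the chromosome 22 list in its order along the chromosome and each column a library, KO left of WT, with U-87 MG in the left panel and HCT116 in the right; colour is the log2 ratio of CPM to the WT mean of the line with 0.5 added to both, and grey rows were not tested. The 3 U-87 MG KO columns are blue in all tested rows but TTC28, with median log2 ratios of -1.04, -1.01 and -0.97, while the HCT116 KO columns are pale.

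The 16 genes around the DiGeorge interval at 22q11 were all lower in U-87 MG KO cells by the adjusted p, and 14 also by the fold, with a median log2 fold change of -1.01. HIRA, a chaperone that deposits histone H3.3, had 39.8, 37.4 and 38.3 CPM in U-87 MG KO libraries, against 88.2, 86.8 and 79.9 CPM in WT libraries. MRPL40, a protein of the mitochondrial ribosome, had 18.7, 21.2 and 20.9 CPM in U-87 MG KO libraries, against 45.8, 42.7 and 45.7 CPM in WT libraries. The KO libraries of both genes lay close to each other and well below all WT libraries, at 45.3% and 45.4% of the WT mean. DGCR8, the RNA-binding partner of DROSHA in microRNA processing, was at 54.5% of WT, CRKL, an adaptor in growth factor signalling, at 54.7%, and the citrate carrier gene SLC25A1 at 59.8%. The phosphatidylinositol 4-kinase gene PI4KA, the membrane fusion gene SNAP29, the ubiquitin-conjugating enzyme gene UBE2L3, the zinc-finger gene THAP7 and PPIL2, a cyclophilin-type protein, lay between 46.2% and 53.8%.

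Among 22q11 genes with ample counts, CLTCL1 and RANBP1 had the lowest values. CLTCL1, a clathrin heavy chain found mainly in muscle, had 6.06, 5.86 and 6.27 CPM in U-87 MG KO libraries, against 22.6, 21.8 and 20.8 CPM in WT libraries, a log2 fold change of -1.84 (SE 0.09). RANBP1, which helps release cargo and RanGTP after nuclear transport, had 52.3, 54.8 and 54.4 CPM in U-87 MG KO libraries, against 138, 126 and 173 CPM in WT libraries. All WT libraries of RANBP1 were far above the KO libraries, but WT library 3 was the highest of them. DGCR6 had 4, 2 and 4 counts in U-87 MG KO libraries, against 15, 18 and 17 in WT libraries, too few to size its difference well (log2 fold change -2.26 (SE 0.49)); its near-copy DGCR6L had 21.4, 23.1 and 23.7 CPM in U-87 MG KO libraries, against 47.3, 44.6 and 45.2 CPM in WT libraries. Of the stretches of 50 bases in their transcripts, 24.9% of DGCR6 and 34.1% of DGCR6L also occur elsewhere in the genome, so the 2 genes can exchange or lose reads. In the deposited FPKM, DGCR6 averaged 7.59 ± 0.700 FPKM in KO libraries and 13.99 ± 1.32 FPKM in WT libraries (SD, n = 3 each), a smaller difference than in the counts.

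All 7 genes of the tumour suppressor, DNA repair and cell division group were lower in U-87 MG KO cells by both rules, with a median log2 fold change of -1.16. NF2, which encodes merlin, a suppressor of schwannoma and meningioma, had 32.1, 31.6 and 32.95 CPM in U-87 MG KO libraries, against 66.5, 70.6 and 70.3 CPM in WT libraries. SMARCB1, a core subunit of the SWI/SNF chromatin remodeller and the gene lost in rhabdoid tumours, had 34.2, 32.3 and 34.8 CPM in U-87 MG KO libraries, against 85.6, 85.6 and 95.6 CPM in WT libraries. CHEK2, the checkpoint kinase that acts downstream of ATM, had 8.05, 7.31 and 9.27 CPM in U-87 MG KO libraries, against 16.9, 17.98 and 16.8 CPM in WT libraries. KO and WT libraries did not overlap for any of the 3, which were at 46.6%, 37.97% and 47.7% of WT. XRCC6, which encodes the Ku70 protein of double-strand break repair, was among the most abundant genes of the list and had 247, 249 and 251 CPM in U-87 MG KO libraries, against 572, 579.7 and 520.2 CPM in WT libraries. GTSE1, a microtubule-associated protein expressed in G2 and S phase, was at 40.7%, the condensin II subunit gene NCAPH2 at 38.7%, and BCR, the fusion partner of ABL1 in chronic myeloid leukaemia, at 52.4%.

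The 5 chromatin and transcription genes were lower by both rules and differed little among themselves, with a median log2 fold change of -0.89 and a range of -1.25 to -0.70. EP300, a histone acetyltransferase and transcriptional co-activator, had 65.3, 64.9 and 68.7 CPM in U-87 MG KO libraries, against 118, 123 and 127 CPM in WT libraries. BRD1, a scaffold of the HBO1 and MOZ acetyltransferases, had 13.1, 14.6 and 13.7 CPM in U-87 MG KO libraries, against 26.3, 25.1 and 24.3 CPM in WT libraries. The Polycomb chromobox genes CBX6 and CBX7 stood at 52.4% and 61.4% of WT and the zinc-finger gene PATZ1 at 42.1%.

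All 8 genes of RNA processing, ribosome making and translation were lower by both rules, with a median log2 fold change of -1.09. EIF3D, the cap-binding subunit of the translation initiation factor eIF3, had 130.5, 135 and 130.2 CPM in U-87 MG KO libraries, against 357, 364 and 373 CPM in WT libraries. EIF3L, another eIF3 subunit, had 133, 131 and 134 CPM in U-87 MG KO libraries, against 305, 309 and 291 CPM in WT libraries. PES1, a ribosome assembly factor for the large subunit, had 62.7, 63.3 and 62.8 CPM in U-87 MG KO libraries, against 189, 186 and 184 CPM in WT libraries. The KO level was 33.8% of WT for PES1 and 36.1% for EIF3D, and nearer to 50% for EIF3L (44.1%), with replicates that differed by far less than the groups. RTCB, the ligase that joins tRNA exons, was at 42.9%, TRMU, which thiolates mitochondrial tRNA, at 50.1%, and the splicing genes SF3A1 and SNRPD3 at 54.5% and 55.3%. The RNA helicase gene DDX17 was the least lowered of the 8 and had 272, 266 and 265 CPM in U-87 MG KO libraries, against 424, 424 and 406 CPM in WT libraries.

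All 5 genes of mitochondria, protein import and nuclear transport were lower by both rules, with a median log2 fold change of -1.31. TOMM22, the central receptor of the mitochondrial import pore, had 44.04, 41.9 and 44.5 CPM in U-87 MG KO libraries, against 114, 115 and 119.8 CPM in WT libraries. NUP50, a nucleoporin of the nuclear basket, had 42.2, 40.6 and 38.4 CPM in U-87 MG KO libraries, against 113, 109 and 112 CPM in WT libraries. RANGAP1, which activates the GTPase of Ran at the pore, had 135, 136 and 141 CPM in U-87 MG KO libraries, against 345, 367 and 307 CPM in WT libraries. These 3 genes were at 37.4%, 36.3% and 40.4% of WT, below the middle of the list, whereas the mitochondrial thioredoxin gene TXN2 (48.3%) and the HSP70 co-chaperone gene ST13 (52.6%) were near it.

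Of the 8 signalling genes 7 were tested and 6 were lower by both rules. YWHAH, a 14-3-3 adaptor, was at 46.5% of WT, TAB1, the activator of the kinase TAK1, at 45.8%, SBF1, a pseudophosphatase of the myotubularin family, at 48.6%, RBX1, the RING subunit of cullin ubiquitin ligases, at 51.04%, LIMK2, which phosphorylates cofilin, at 56.3%, and PPP6R2, a regulatory subunit of protein phosphatase 6, at 54.8%. MIF, a macrophage cytokine that also acts as a tautomerase, had 157, 183 and 189 CPM in U-87 MG KO libraries, against 250.1, 230.4 and 405 CPM in WT libraries. WT library 3 was far above the other two, no KO library reached a WT library, and the log2 fold change of -0.74 (SE 0.27) had the largest error of the list after DGCR6 and passed neither rule. RBX1 showed the reverse, with 38.2, 41.5 and 42.1 CPM in U-87 MG KO libraries, against 87.6, 87.2 and 63.8 CPM in WT libraries, and the same WT library was the lowest.

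The 6 genes of the secretory pathway, matrix and adhesion were the most uneven group, because FOXRED2, ELFN2 and CELSR1 lost far more RNA than the rest of the list. FOXRED2, a flavoprotein of the endoplasmic reticulum that takes part in degradation of misfolded proteins, had 1, 4 and 1 counts in U-87 MG KO libraries, against 952, 1297 and 1151 in WT libraries. ELFN2, a leucine-rich repeat protein of the membrane that binds protein phosphatase 1 and glutamate receptors, had 1, 6 and 4 counts in U-87 MG KO libraries, against 593, 772 and 615 in WT libraries. Both genes were thus almost silent in all 3 KO libraries, at 0.191% and 0.609% of the WT mean in CPM, although they were readily detected in U-87 MG WT cells and in both groups of HCT116 cells. CELSR1, an atypical cadherin of planar cell polarity, had 10.7, 10.7 and 11.3 CPM in U-87 MG KO libraries, against 80.6, 79.3 and 84.3 CPM in WT libraries, or 13.4% of WT. LMF2, a lipase maturation factor, and KDELR3, a receptor that returns proteins to the endoplasmic reticulum, were at 62.03% and 69.6%.

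The genes next to FOXRED2 and ELFN2 did not share their near-complete loss. FOXRED2 lies at chr22:36487190-36507040 (GRCh38, minus strand) between TXN2 at chr22:36467046-36481640 and EIF3D at chr22:36510855-36529166, both on the same strand. TXN2 had 52.7, 52.1 and 55.4 CPM in U-87 MG KO libraries, against 107, 111 and 113 CPM in WT libraries. ELFN2 lies at chr22:37340644-37427479 on the minus strand, and its nearest tested neighbours were CYTH4, an exchange factor for ARF GTPases, and CARD10, a scaffold of NF-kappaB signalling, which are outside the list and were named here after their values were seen. CYTH4 had 25.4, 30.0 and 26.7 CPM in U-87 MG KO libraries, against 38.6, 40.9 and 38.8 CPM in WT libraries, and CARD10 had 15.8, 16.7 and 16.9 CPM in U-87 MG KO libraries, against 47.5, 50.3 and 44.9 CPM in WT libraries. All 4 neighbours were detected in every KO library, at 69.4% of WT for CYTH4, 48.3% for TXN2, 36.1% for EIF3D and 34.7% for CARD10. In HCT116, FOXRED2 had 43.8, 42.4 and 44.3 CPM in HCT116 KO libraries, against 40.7, 39.8 and 38.4 CPM in WT libraries, and ELFN2 had 165, 165 and 186 CPM in HCT116 KO libraries, against 131, 126 and 141 CPM in WT libraries.

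The start regions of these 2 silent genes and of one neighbour of each are shown because the near-absence of RNA in KO cells sets FOXRED2 and ELFN2 apart from genes that start close by. Each is the RefSeq window (GRCh38.p14) from 250 bases before to 50 bases after the start, read 5′ to 3′ on the gene's minus strand, in lower case with every CG dinucleotide, the site of DNA methylation, in capitals.
FOXRED2, chr22:36506991-36507290: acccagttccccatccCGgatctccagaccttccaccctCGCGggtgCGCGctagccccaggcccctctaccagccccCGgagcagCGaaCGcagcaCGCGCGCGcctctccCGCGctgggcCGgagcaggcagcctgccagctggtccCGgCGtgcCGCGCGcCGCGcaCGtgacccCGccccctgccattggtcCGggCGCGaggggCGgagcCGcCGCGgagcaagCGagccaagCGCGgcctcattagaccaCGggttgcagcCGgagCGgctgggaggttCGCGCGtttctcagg
EIF3D, chr22:36529117-36529416: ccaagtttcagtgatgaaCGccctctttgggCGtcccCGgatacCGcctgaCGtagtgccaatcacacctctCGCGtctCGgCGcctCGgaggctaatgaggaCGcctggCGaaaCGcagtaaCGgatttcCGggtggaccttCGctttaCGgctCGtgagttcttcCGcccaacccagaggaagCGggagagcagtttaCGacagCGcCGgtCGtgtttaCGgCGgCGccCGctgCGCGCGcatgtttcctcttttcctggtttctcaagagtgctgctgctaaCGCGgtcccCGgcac
ELFN2, chr22:37427430-37427729: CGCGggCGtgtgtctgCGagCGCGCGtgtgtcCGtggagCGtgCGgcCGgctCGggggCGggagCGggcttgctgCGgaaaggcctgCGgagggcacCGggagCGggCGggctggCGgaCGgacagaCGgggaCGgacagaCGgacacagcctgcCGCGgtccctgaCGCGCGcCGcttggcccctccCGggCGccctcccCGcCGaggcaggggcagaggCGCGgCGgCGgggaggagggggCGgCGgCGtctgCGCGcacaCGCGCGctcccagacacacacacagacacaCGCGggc
CARD10, chr22:37519366-37519665: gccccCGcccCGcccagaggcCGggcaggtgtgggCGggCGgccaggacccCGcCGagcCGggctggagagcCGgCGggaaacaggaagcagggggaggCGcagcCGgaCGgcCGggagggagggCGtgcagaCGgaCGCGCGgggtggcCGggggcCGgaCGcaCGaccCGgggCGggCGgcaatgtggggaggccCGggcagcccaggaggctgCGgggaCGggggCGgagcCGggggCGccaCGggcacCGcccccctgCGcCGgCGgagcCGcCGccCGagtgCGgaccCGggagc
All 4 windows are rich in CG: FOXRED2 holds 40, EIF3D 34, ELFN2 48 and CARD10 42, with G and C making up 74.7%, 61.3%, 78.7% and 83.3% of the bases. The letters CG read the same on both strands, and over the 35116 windows of the RefSeq table the median was 14. At least 40 occur in 7.61% of all windows, at least 34 in 15.6%, at least 48 in 1.98% and at least 42 in 5.85%. All 4 windows thus lie above the median, those of the silent genes and of their neighbours alike, and methylation was not measured. A window was found for 49 of the 57 genes.

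**Figure D2:**
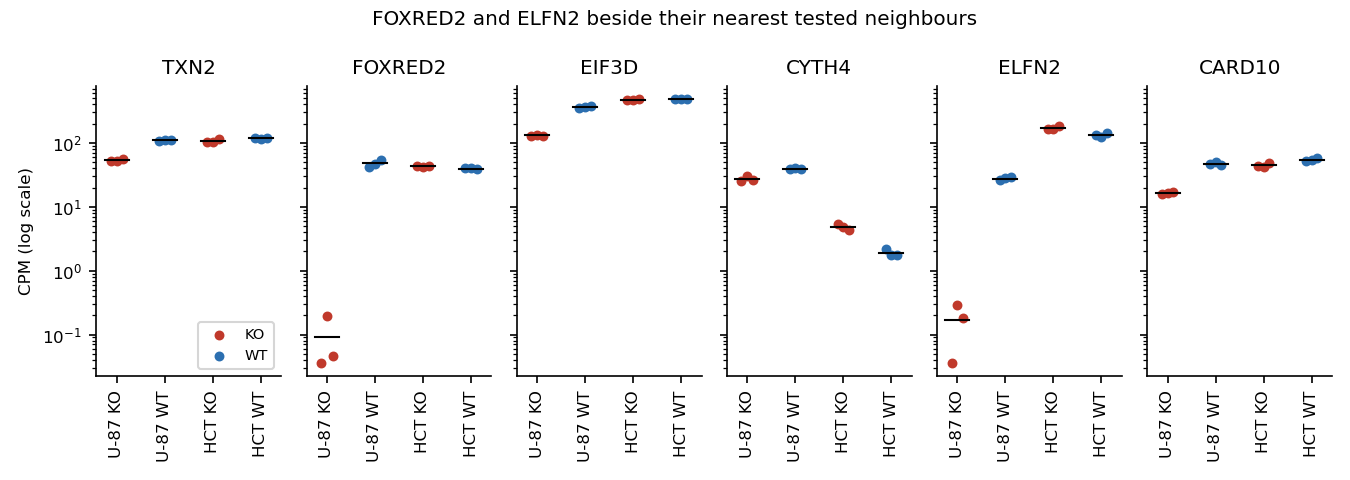
Points are CPM in each library on a log scale for FOXRED2 and ELFN2 and the nearest tested genes on either side, KO (red) left of WT (blue) in U-87 MG and then in HCT116, with bars at the group means. In U-87 MG KO libraries FOXRED2 and ELFN2 lie below 0.3 CPM, while TXN2, EIF3D, CYTH4 and CARD10 remain at 48.3%, 36.1%, 69.4% and 34.7% of WT.

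At the other end of the list, 5 tested genes missed the call. ATP6V1E1, a subunit of the proton-pumping V-ATPase, had 92.2, 99.3 and 102 CPM in U-87 MG KO libraries, against 138, 138 and 127 CPM in WT libraries. BID, a BH3-only protein of the mitochondrial death pathway, had 48.01, 53.8 and 49.4 CPM in U-87 MG KO libraries, against 76.0, 71.1 and 71.7 CPM in WT libraries. KDELR3 had 75.2, 76.0 and 72.9 CPM in U-87 MG KO libraries, against 111, 99.4 and 112 CPM in WT libraries. These 3 genes were lower in every KO library and passed the adjusted p but not the fold, with log2 fold changes of -0.46 (SE 0.05), -0.53 (SE 0.06) and -0.52 (SE 0.05); just inside the threshold of 0.58 lay DDX17 at -0.64 (SE 0.04), LMF2 at -0.69 (SE 0.05) and CBX7 at -0.70 (SE 0.08). TTC28, a large tetratricopeptide protein next to CHEK2, was the only tested gene of the list without a negative difference, with 20.8, 20.1 and 22.1 CPM in U-87 MG KO libraries, against 20.7, 21.6 and 20.2 CPM in WT libraries and groups that overlapped. Its neighbour CHEK2 was at 47.7%. PDGFB, the growth factor of pericytes and of many gliomas, had 0 counts in all 6 U-87 MG libraries, FBLN1, a fibulin of the extracellular matrix, had 0, 1 and 1 counts in U-87 MG KO libraries, against 0, 0 and 0 in WT libraries, and TYMP, which cleaves thymidine, had 1, 0 and 0 counts in U-87 MG KO libraries, against 2, 8 and 15 in WT libraries; these 3 were not tested in U-87 MG.

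Of the 57 genes, 25 share more than 5% of their 50-base stretches with another locus or overlap another counted gene over more than 5% of their exons. HIRA shares 66.5% with C22orf39 on its own strand, MIF is covered to 94.1% by MIF-AS1 on the other strand and ST13 has 44.4% of its stretches elsewhere. The labels leave the strand setting of the counting unstated, so reads of such pairs cannot be assigned with certainty. Among the 30 tested genes without such sequence 28 were lower and the median log2 fold change was -0.98, against 21 of 24 and -1.06 among the others.

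The same shift ran through the rest of chromosome 22. Of its 556 genes outside the list, 263 were tested in U-87 MG, and 176 were lower and 4 higher by the full rule, with 224 lower by the adjusted p alone and 226 with every KO library below every WT library. Their median log2 fold change was -0.95. Over all 317 tested genes of the chromosome the median was -0.97, the quartiles -1.23 and -0.68, and 93.7% were below 0. MCM5, CDC45, RPL3 and ATF4 were picked from them with earlier results of these data known, so their values are a description. The replication genes MCM5 and CDC45 had log2 fold changes of -1.58 (SE 0.05) and -1.45 (SE 0.07). The ribosomal protein gene RPL3 had -0.93 (SE 0.04) and ATF4, the transcription factor of the integrated stress response, -1.01 (SE 0.04). RPL3 had 942, 981 and 977 CPM in U-87 MG KO libraries, against 1927, 1909 and 1702 CPM in WT libraries.

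Among well-expressed genes outside the list, the largest losses in U-87 MG KO cells were in RASD2, a Ras-like GTPase, with 8.74, 9.66 and 9.27 CPM in U-87 MG KO libraries, against 46.1, 46.6 and 48.5 CPM in WT libraries, and TTLL12, of the tubulin tyrosine ligase family, with 12.9, 14.2 and 12.6 CPM in U-87 MG KO libraries, against 58.4, 63.2 and 56.7 CPM in WT libraries. FAM118A, KIAA1644, APOBEC3B, IL17RA and RABL2B were also among the lowest, with log2 fold changes from -1.81 to -1.65; 48.2% of the stretches of RABL2B and 34.5% of those of APOBEC3B occur elsewhere. APOBEC3G, a cytidine deaminase that restricts retroviruses, had 15, 5 and 7 counts in U-87 MG KO libraries, against 129, 157 and 129 in WT libraries. A few genes went the other way. APOL1, a serum and cell apolipoprotein induced by interferon, had 27.8, 24.9 and 24.8 CPM in U-87 MG KO libraries, against 3.26, 2.43 and 2.08 CPM in WT libraries, a log2 fold change of 3.32 (SE 0.12). The heparin cofactor gene SERPIND1 was higher at 0.96 (SE 0.11) and the glycosyltransferase gene A4GALT at 0.65 (SE 0.10); without WT library 3 the value for A4GALT was 0.58, short of the fold threshold. TIMP3, an inhibitor of metalloproteinases, and TST, a sulfurtransferase, passed the adjusted p but not the fold, at 0.56 (SE 0.04) and 0.46 (SE 0.14); without KO library 2 TIMP3 reached 0.59 and passed.

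The medians varied little with position on the arm. In bins of 5 Mb the median log2 fold change of U-87 MG genes ranged from -1.05 in the bin nearest the centromere (30 genes) to -0.90 in the next (60 genes), and was -1.03 in the last bin, which held 18 genes. A running median over 15 neighbouring genes stayed between -1.23 and -0.58 along the chromosome. In U-87 MG they also varied little with the level of expression. With genes split into 3 equal parts by mean FPKM, from low to high, the medians were -0.91, -0.99 and -0.98. In HCT116 the running median lay between -0.27 and 0.58. Split in the same way, the HCT116 medians fell with the level of expression, from 0.11 through 0.01 to -0.14.

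**Figure D3:**
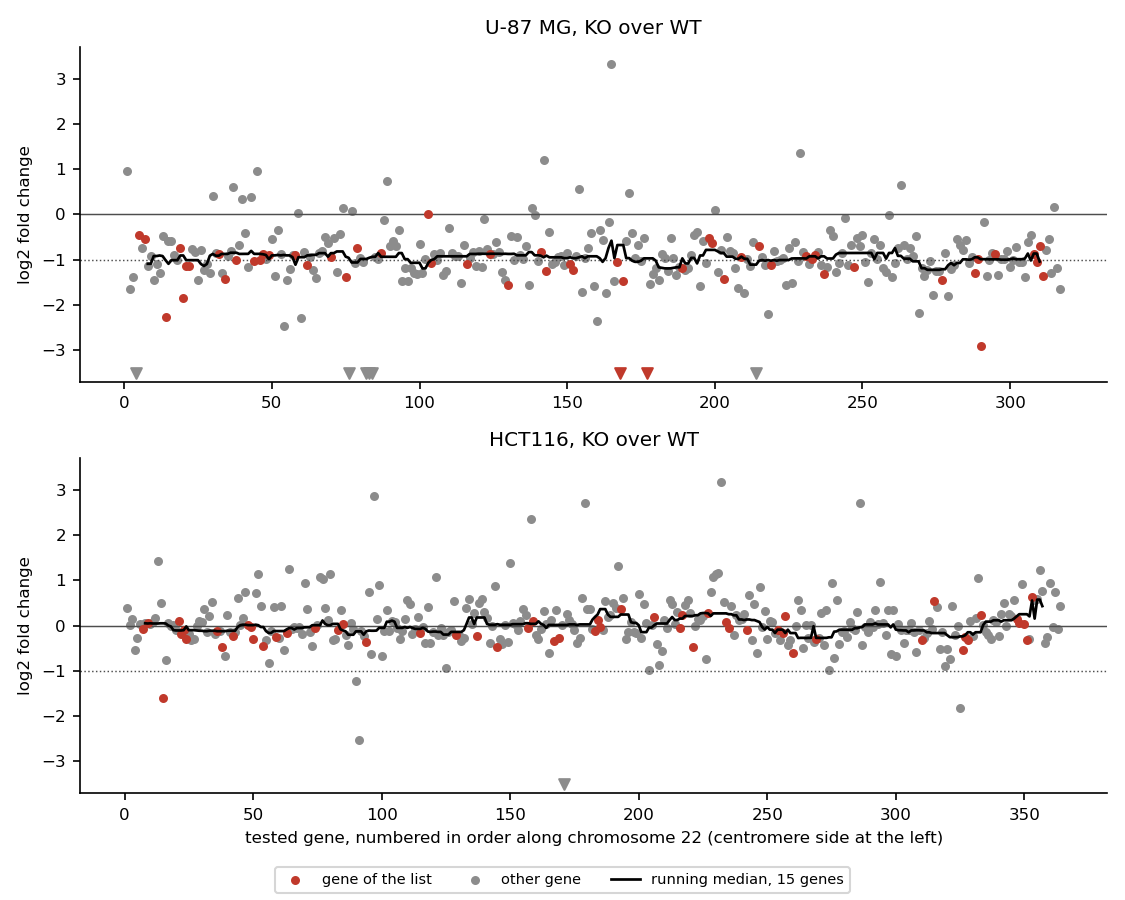
Each point is a tested gene of chromosome 22 in its order from the centromere, with the log2 fold change of KO over WT in U-87 MG above and HCT116 below; red points are genes of the list, the line is the running median of 15 genes, the dotted line marks -1 and triangles mark values beyond the axis. The U-87 MG line runs between -1.23 and -0.58 throughout, the HCT116 line between -0.27 and 0.58.

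The share of all counts that fell on chromosome 22 genes outside the list gives 1 value per library that leaves out the listed genes. This measure was chosen with earlier results of these same libraries known, so it is not independent of them. The share was 0.938%, 0.959% and 0.963% in U-87 MG KO libraries, against 1.82%, 1.85% and 1.80% in WT libraries, a ratio of 0.523. In HCT116 it was 1.77%, 1.77% and 1.85% in KO libraries, against 1.68%, 1.68% and 1.73% in WT libraries, a ratio of 1.06. The groups did not overlap in either line, in opposite directions, and an exact two-sided permutation test gave p = 0.1 in each, the smallest value that 3 against 3 libraries allow. The HCT116 difference rested on few genes, since without the 5 genes with most counts on the chromosome (RPL3, MYH9, LGALS1, H1F0 and EWSR1) the exact p was 0.5 and the ratio 1.02, while the U-87 MG ratio was 0.543 with the same exact p of 0.1. The 57 listed genes held 0.318%, 0.324% and 0.326% of counts in U-87 MG KO libraries, against 0.645%, 0.645% and 0.657% in WT libraries. In HCT116 they held 0.785%, 0.779% and 0.804% in KO libraries, against 0.838%, 0.838% and 0.856% in WT libraries. That is a ratio of 0.935 with no overlap, where the other genes of the chromosome had 1.06. The listed genes were chosen on these contrasts, so their shares in both lines are a description.

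Chromosome 22 was not the only chromosome with a shift in U-87 MG. Its median log2 fold change was the lowest of 23 chromosomes, and 71.0% of its tested genes were lower. Chromosome 14 came next with -0.47, where 157 of 452 genes (34.7%) were lower, and chromosome 13 with -0.23, where 74 of 249 (29.7%) were. All other chromosomes had medians from -0.06 to the 0.11 of chromosome 12. On chromosome 13 the shift was limited to the distal part: genes before 70 Mb had a median of 0.02 and 13 of 155 were lower, and genes beyond it a median of -0.80 with 61 of 94 lower. On chromosome 14 the medians were -0.40 before 30 Mb, -0.79 between 30 and 50 Mb and -0.44 beyond. The boundaries were drawn after the values were seen. Of the 1120 genes that were lower in U-87 MG KO cells, 20.1% lay on chromosome 22, which held 2.31% of the genes tested, 14.02% on chromosome 14 and 6.61% on chromosome 13. In HCT116 every chromosome had a median between -0.08 and 0.04, and the distal part of chromosome 13 stood at -0.02.

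**Figure D4:**
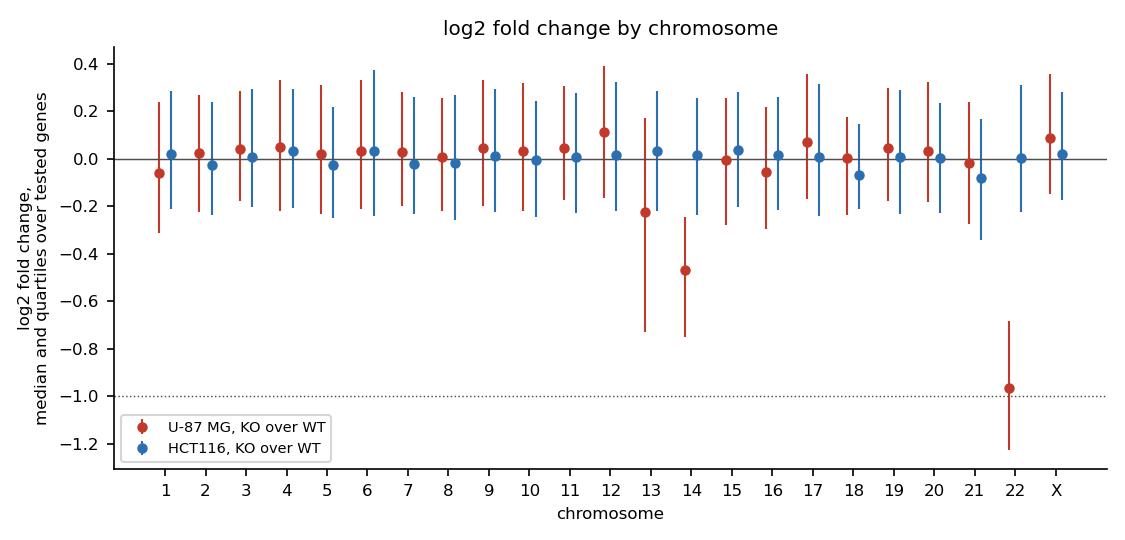
Points are the median log2 fold change of KO over WT of the tested genes of each chromosome and bars the quartiles over genes, with U-87 MG in red and HCT116 in blue; the dotted line marks -1. Chromosome 22 (-0.97), 14 (-0.47) and 13 (-0.23) stand below the others in U-87 MG, and no chromosome leaves the range of -0.08 to 0.04 in HCT116.

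In HCT116 the listed genes differed little between KO and WT cells. This comparison also chose the list, so its counts are a description. Of 56 tested genes, 2 were lower and 1 higher by the full rule, against 4.07% and 7.82% of all 14068 genes tested, and the median log2 fold change was -0.10. By the adjusted p alone 26 were lower and 9 higher, against 28.1% and 29.2% of all genes, with small differences: the quartiles were -0.29 and 0.05. In 29 genes every KO library lay below every WT library and in 11 above, against 30.4% and 31.2% of all genes. RANGAP1 had 137, 139 and 156 CPM in HCT116 KO libraries, against 228, 209 and 221 CPM in WT libraries, a log2 fold change of -0.60 (SE 0.05) that did not reach the fold without KO library 1 (-0.57), KO library 2 (-0.58) or WT library 1 (-0.58). DGCR6 was the other, on 6, 2 and 3 counts in HCT116 KO libraries, against 13, 15 and 12 in WT libraries, and was no longer lower in FPKM (log2 difference -0.06 with 1 added). The gene that was higher, TYMP, had 26.9, 25.7 and 30.1 CPM in HCT116 KO libraries, against 18.3, 16.5 and 18.9 CPM in WT libraries, a log2 fold change of 0.63 (SE 0.08), which fell short without KO library 3 (0.55) or WT library 2 (0.57).

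In HCT116 signs differed between the role groups, which are small and were drawn up with earlier results known. Of the tested listed genes 67.9% had negative values, against 49.2% of all genes tested. All 7 tumour suppressor, repair and division genes had negative values, with a median of -0.21, led by GTSE1 at -0.55 (SE 0.05), and all 5 genes of mitochondria, import and nuclear transport did, with a median of -0.33. By the full rule 0 of these 7 and 1 of these 5 were lower. All 5 chromatin genes had positive values, with a median of 0.21, and 0 were higher by the full rule. EP300 had 205, 207 and 205 CPM in HCT116 KO libraries, against 177, 178 and 179 CPM in WT libraries, with no overlap. The 2 eIF3 genes also differed, EIF3L at 0.19 (SE 0.03) and EIF3D at -0.02 (SE 0.03). The matrix gene FBLN1 had 27.4, 30.3 and 34.4 CPM in HCT116 KO libraries, against 20.4, 20.4 and 22.4 CPM in WT libraries, at 0.55 (SE 0.08) just under the fold threshold, which it passed without KO library 1 (0.62) or WT library 3 (0.59). FOXRED2 and ELFN2, silent in U-87 MG KO cells, stood at 0.13 (SE 0.06) and 0.38 (SE 0.05) in HCT116. The 364 tested genes of chromosome 22 had a median of 0.00, with 13 lower (3.57%) and 26 higher (7.14%). These shares are near the 4.07% and 7.82% of all genes tested.

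The difference between the lines was also estimated directly, as the KO over WT log2 fold change in U-87 MG minus that in HCT116 in a fit of all 12 libraries. Of the 53 listed genes tested in both lines, 47 had a lower value in U-87 MG and 0 a higher one, against 11.3% and 8.24% of all 12225 genes; 51 were lower by the adjusted p alone, against 25.6%, and the median difference was -0.90. As the list was chosen on these contrasts, this is a description. The largest differences were in FOXRED2 (-9.19 (SE 0.23)), ELFN2 (-7.81 (SE 0.21)) and CELSR1 (-2.60 (SE 0.09)), and the smallest in ATP6V1E1 (-0.41 (SE 0.07)). Of the 241 other genes of chromosome 22, 174 were lower in U-87 MG and 2 higher, with a median of -0.96.

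The comparison of WT cells between the 2 lines did not choose the listed genes. The same WT libraries entered the KO against WT values that did, so it is not independent of the choice. WT levels of the listed genes did not set the lines apart in one direction. In U-87 MG WT over HCT116 WT libraries 15 of 57 were lower and 12 higher by the full rule (edgeR), against 26.9% and 28.3% of 15613 genes tested, and the median log2 fold change was -0.18; for all 385 tested genes of chromosome 22 the counts were 111 and 89. By the adjusted p alone 30 of the 57 were lower and 21 higher, against 43.7% of all genes in each direction. The 15 include PDGFB, FBLN1 and TYMP, which U-87 MG hardly expressed or did not express at all. ELFN2 was lower in U-87 MG at -2.08 (SE 0.07), SNRPD3 at -1.09 (SE 0.04) and BRD1 at -0.98 (SE 0.06), while KDELR3 was higher at 1.48 (SE 0.06), RBX1 at 1.44 (SE 0.09) and RTCB at 1.23 (SE 0.05). TTC28 had 5, 3 and 7 counts in HCT116 KO libraries, against 1, 2 and 4 in WT libraries and was thus nearly absent from HCT116, but had 577, 419 and 486 counts in U-87 MG KO libraries, against 471, 595 and 428 in WT libraries. U-87 MG libraries were read in pairs and HCT116 libraries singly, so the line and the read layout cannot be told apart in this comparison.

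Several listed genes code for members of complexes or protein families whose other members lie on other chromosomes. Most of these partners had smaller differences than the listed genes. Some of these sets, called complexes here, hold related genes and not subunits. Among them are CREBBP for EP300 and the other 14-3-3 genes for YWHAH. Of 100 partners in these 20 complexes, 99 were tested in U-87 MG. By the full rule 4 were lower and 2 higher, against 8.15% and 8.06% of all genes. The median log2 fold change of the partners was -0.13, and 46 were lower by the adjusted p alone, against 30.2%. In 19 of the 20 complexes every listed gene had a lower value than every partner. The exception was the Polycomb complex PRC1, where CBX2 stood at -1.07 (SE 0.22), below CBX6 and CBX7. The listed genes were chosen for low values in this comparison, so the order is a description and was not tested. In HCT116 3 of 99 partners were lower and 3 higher, against 4.07% and 7.82% of all genes, with a median of -0.13. By the adjusted p alone 53 were lower, against 28.1%. The difference between the lines was lower for 3 and higher for 5 of the 99 partners, against 11.3% and 8.24% of all genes, with a median of 0.04.

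The 10 tested eIF3 partners of EIF3D and EIF3L were all lower in U-87 MG KO cells by the adjusted p, against 30.2% of all genes. None was lower by the fold, and their median log2 fold change was -0.29, against -1.47 for EIF3D and -1.18 for EIF3L. In HCT116, 6 of these 10 partners were lower by the adjusted p, against 28.1% of all genes, with a median of -0.15. C14orf166, now RTRAF, a subunit of the tRNA ligase complex of RTCB, had 74.7, 75.6 and 74.9 CPM in U-87 MG KO libraries, against 142, 142 and 145 CPM in WT libraries, and is coded on chromosome 14. The partners of PES1 in ribosome assembly included BOP1, which was lower with a log2 fold change of -0.75 (SE 0.06), and the condensin gene SMC2 was lower at -0.59 (SE 0.05); SMC2 lay on the fold threshold and missed it with DESeq2 (-0.58) and without KO library 2 (-0.56). ING4, of the HBO1 acetyltransferase, was higher at 1.00 (SE 0.08) in U-87 MG and 0.73 (SE 0.09) in HCT116. The V-ATPase subunit gene ATP6V1A was higher at 0.61 (SE 0.05) in U-87 MG while ATP6V1E1 of the list had a negative value, but ATP6V1A missed the fold without KO library 1 (0.57) or WT library 3 (0.57). In HCT116, TOMM40, the pore partner of TOMM22, was lower at -0.66 (SE 0.04), SMC4 at -0.64 (SE 0.06) and SNRPG at -0.59 (SE 0.05), and SMARCA2, an ATPase of SWI/SNF, was higher at 0.92 (SE 0.08); TOMM40 was at -0.58 (SE 0.05) in U-87 MG. PHC1 of PRC1 was higher at 0.61 (SE 0.11) in HCT116, but 70.9% of its stretches occur elsewhere. SMC4 missed the fold without KO library 3 (-0.57), SNRPG without KO library 2 (-0.57) or WT library 3 (-0.58), and PHC1 without KO library 2 (0.58) or WT library 1 (0.52). The plot by complex sets each listed gene against its partners.

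**Figure D5:**
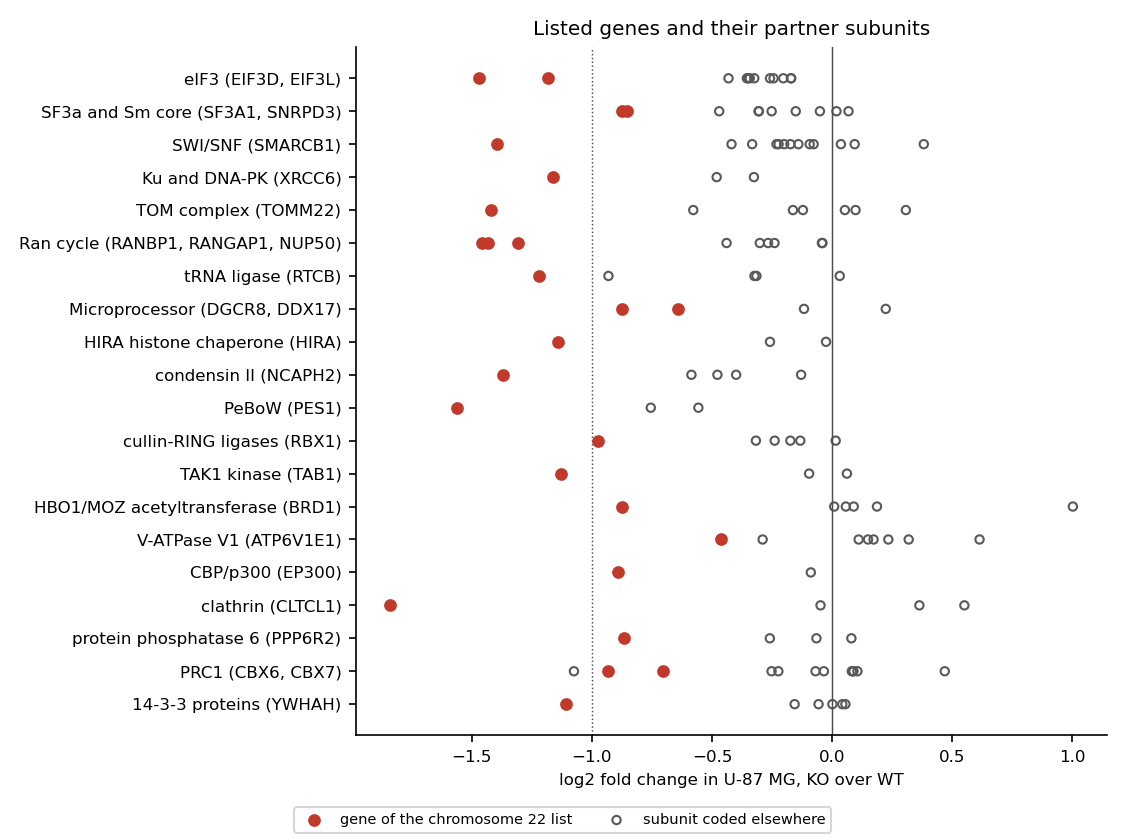
Each row is a complex or gene family named with its chromosome 22 members in brackets. Points are log2 fold changes of KO over WT in U-87 MG, red for the listed genes and open circles for partners coded on other chromosomes. The dotted line marks -1. Red points lie left of all open circles in 19 of 20 rows, the exception being PRC1, whose CBX2 is at -1.07. The listed genes were chosen for low values in this comparison, so their order is a description.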

How the data were processed

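The labels' protocols state that RNA of integrity 8 or above went into stranded mRNA libraries (3 per group), read singly for HCT116 and in pairs for U-87 MG at 50 bp. Per the submitters' processing notes, STAR 2.5.2 aligned the reads to GRCh38; the authors' deposited counts (featureCounts 1.6.1) are whole numbers for each symbol, and the deposited FPKM values come from Cufflinks 2.2.1. Library totals of 17814142 to 28097179 counts set the counting error, and intervals and errors cover these libraries only.

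Genes were placed with the RefSeq table of GRCh38.p14, which gave a position for 26839 of 27788 symbols (96.6%). Counts of the 6 libraries of a line were tested with edgeR 4.0.16 (R 4.3.3; TMM, filterByExpr, robust quasi-likelihood F-test, Benjamini-Hochberg). Calls required an adjusted p below 0.05 together with more than 1.5-fold change and an average FPKM over 0.5; a second rule used the adjusted p only. The differences between lines and between WT cells came from a fit of all 12 libraries in 4 groups, with genes tested in both lines and counted in every group kept for the first. CPM are scaled by TMM within a line. Limma 3.58.1 on log2(FPKM + 1) and log2(FPKM + 0.1), DESeq2 1.42.0, other scalings and filters, a replicate block and leaving out each library were alternatives. Shared sequence was searched as stretches of 50 bases on the primary chromosomes, and overlaps were taken from GENCODE.

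The 57 members, their role groups, the partner and marker lists and the tests were chosen with earlier results of these data known, and most by textbook roles. Named genes are all members, the 8 lowest and 5 highest other genes of chromosome 22 in U-87 MG with a mean of at least 2 FPKM and no overlap between groups, MCM5, CDC45, RPL3, ATF4 and APOBEC3G, and up to 2 called partners per complex; 1 of these other genes and 1 leukocyte marker are not reported here. On simulated counts with 200 changed genes, 46.3%, 98.5% and 100% of genes changed by 1.5, 2 and 4-fold were called for U-87 MG. Of unchanged genes 0.0443% were called. For HCT116 the shares of changed genes were 58.2%, 100% and 100%. The changed genes were drawn from better-expressed genes, in random directions, and no FPKM limit was applied. The rates therefore do not cover weakly expressed genes or many genes of a chromosome that shift together.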

Additional observations from a re-analysis of the deposited data

Results flagged for a closer look

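For 12 genes of chromosome 22 outside the list, the KO over WT log2 fold change differed between the lines by a test of the difference itself (edgeR's quasi-likelihood test of the interaction over 12 libraries, adjusted over all genes of the fit, with a fold above 1.5). Of these genes MCM5, CDC45, RPL3, ATF4 and APOBEC3G were fixed with earlier results of these data known. The others were picked for a large value in U-87 MG. The tested difference contains that U-87 MG value, so the outcome was partly set by the choice. Of all 241 other genes of chromosome 22 in this test, 174 (72.2%) were lower and 2 higher, against 11.3% and 8.24% of all genes. A lower value in U-87 MG is thus shared by most of the chromosome and is not particular to the genes named here. The difference, U-87 MG minus HCT116, was -7.09 for APOBEC3G, -2.50 for APOBEC3B, -2.10 for RASD2, -2.09 for RABL2B, -1.91 for FAM118A and -1.82 for IL17RA. It was -1.55 for TTLL12, -1.50 for ATF4, -1.37 for RPL3, -1.21 for MCM5 and -1.16 for CDC45. A4GALT was the only one of the 12 with a positive difference, 0.67. APOBEC3G and APOBEC3B moved in opposite directions in the 2 lines: APOBEC3B had 12.6, 15.05 and 14.7 CPM in U-87 MG KO libraries, against 44.4, 49.1 and 47.4 CPM in WT libraries, and 25.9, 25.5 and 28.2 CPM in HCT116 KO libraries, against 16.1, 14.3 and 17.2 CPM in WT libraries.

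By the same test 3 of 99 partners on other chromosomes had a lower and 5 a higher value in U-87 MG, against 11.3% and 8.24% of all genes. The 4 of these 8 that the rule for named genes picked were C14orf166 (-0.92), CBX2 (-0.99), PHC1 (-0.85) and SNRPG (0.65). Differences of the 57 listed genes are not given as flags, since the list was chosen on these contrasts.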

How the results depend on the processing

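Counts of listed genes in U-87 MG were 49 or 50 lower and 0 higher under every alternative run, and those of the difference between lines 41 to 48 lower and 0 higher. In U-87 MG the median of the listed genes was -0.99 with log2(FPKM + 0.1), -0.91 with log2(FPKM + 1), -0.998 with upper quartile scaling and -0.98 without genes of shared or overlapped sequence; that of the other chromosome 22 genes was -0.87, -0.74 and -0.91 under the first 3, -0.92 without a filter and -0.98 at a mean FPKM of at least 5; that of all chromosome 22 genes was -0.91, -0.79 and -0.93. Adding 1 to FPKM understates changes of low genes. Leaving out 1 library gave -1.06 to -1.03 for the listed, -0.97 to -0.92 for the other and -0.98 to -0.94 for all genes. The share of counts on other chromosome 22 genes was 0.543 of WT without the 5 genes with most counts.

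In HCT116, log2(FPKM + 1) gave 1 listed gene lower, 0 higher and 15 other genes higher (against 25), and without 1 library 1 to 2 were lower and 0 to 2 higher. Medians in HCT116 were -0.15 and -0.14 for the listed genes with 0.1 and 1 added to FPKM (-0.13 to -0.10 without 1 library), -0.0318 for other genes with 0.1 added and -0.0275 at a mean FPKM of at least 5, and -0.0593, -0.0473 and -0.0497 for all chromosome 22 genes with 0.1 added, 1 added and that minimum. The HCT116 share ratio was 1.13 by FPKM and 1.02 without the 5 genes with most counts, and the lowest median of a bin was -0.10 in bins of 10 Mb. Partners lower in U-87 MG were 2 with log2(FPKM + 1); in HCT116 6 and 5 were lower with 0.1 and 1 added, 1 was higher with 1 added, and without 1 library 2 to 3 were lower and 2 to 3 higher. The cause of these differences was not tested.

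In U-87 MG the deviations of same-numbered KO and WT libraries were hardly correlated, at 0.03, 0.004 and -0.008. In HCT116 these correlations were 0.07, 0.06 and 0.23. HCT116 KO libraries 1 and 2 had 0.10 and 0.06 with WT libraries 2 and 1, much as with their own number. HCT116 KO library 3 had -0.12 and -0.14 with WT libraries 1 and 2, so the KO and WT libraries numbered 3 deviated together. The cause was not tested. With a replicate block 49 listed genes were lower in U-87 MG, 2 lower and 1 higher in HCT116, and 48 lower in the difference between lines. With 3 libraries per group and a fold of 1.5 at the call threshold, values near that fold depend on single libraries.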

Other observations

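A run of 3 consecutive tested genes at 22q11, outside the list and named here after their values were seen, was nearly silent in U-87 MG KO cells as FOXRED2 and ELFN2 were. SUSD2, a sushi domain protein of the membrane, had 6, 2 and 1 counts in U-87 MG KO libraries, against 73, 76 and 67 in WT libraries. GGT5, a gamma-glutamyltransferase that cleaves glutathione-linked leukotriene C4, had 0, 0 and 0 counts in U-87 MG KO libraries, against 20, 32 and 10 in WT libraries. POM121L9P, a pseudogene with 57.5% of its stretches elsewhere, had 0, 2 and 0 counts in U-87 MG KO libraries, against 11, 18 and 11 in WT libraries. Their tested neighbours CABIN1 and SPECC1L had log2 fold changes of -1.06 (SE 0.05) and -0.94 (SE 0.09), near the middle of the chromosome. In HCT116 SUSD2 had 704, 776 and 1044 counts in HCT116 KO libraries, against 2222, 2465 and 2172 in WT libraries, and GGT5 had 13, 8 and 13 counts in HCT116 KO libraries, against 84, 88 and 60 in WT libraries, and every KO library lay below every WT library for both.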
